A study of Oryzias latipes with 27 samples.

Results

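The genes figla, nobox, zglp1, bmp15 and zar1 encode oocyte factors of the medaka (Oryzias latipes) gonad and were chosen by symbol. Of 6 symbols looked for, 5 were found among the 26099 genes of the tables, and gdf9 was not analysed here. Poly(A) RNA was sequenced from gonads of fish 10, 30 and 120 days after hatching (D10, D30, D120), in 27 libraries that make 9 groups of 3 biological replicates. MT_Fe_Ov is the ovary of XY fish that carry a knockout of DMY, the male-determining gene of the medaka Y chromosome, and develop as females. WT_Fe_Ov is the ovary of the wild-type XX female, and WT_Ma_Te is the testis of the wild-type XY male. The mutation was made with TALEN nucleases and is inherited stably, and whether all MT_Fe_Ov libraries come from 1 line is not given in the sources used here. D10 libraries hold the gonadal primordium with neighbouring body tissue. DMY itself was not analysed here, so genotypes are taken from the labels alone.

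As background, these genes act in germ cells as they become oocytes. Figla and Nobox are transcription factors, of the basic helix-loop-helix and the homeobox kind, that mouse oocytes need to form and keep follicles, and Figla switches on egg coat genes. Zglp1 is a GATA-like zinc finger factor that directs mouse germ cells towards the oocyte fate. Bmp15 is a growth factor of the TGF-beta family that oocytes secrete to the follicle cells around them. Zar1 and its relative Zar1l bind RNA and hold maternal mRNAs in the growing oocyte.

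In the ASM223467v1 assembly of RefSeq, figla lies on chromosome 9 (24881687 to 24903836), nobox on chromosome 11 (21872173 to 21884418) and zglp1 on chromosome 1 (10352991 to 10359320). The gene bmp15 lies on chromosome 18 (21189114 to 21192342) and zar1 on chromosome 4 (1220502 to 1221857). Reads were counted over their exons, which span 1201 bases in figla, 2834 in nobox, 2400 in zglp1, 2181 in bmp15 and 1112 in zar1. None of the 5 loci overlapped another annotated gene, although fryl lies 51 bases from zar1 and fdx1l 109 bases from zglp1.

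Library totals were between 5551651 and 17586392 counted read pairs (median 12200597), and the lowest were 2 libraries of D10_WT_Ma_Te and 2 of D30_MT_Fe_Ov. In the paper's alignment summary these libraries were not as low in uniquely aligned pairs, so a smaller part of their aligned pairs was counted. At D30 this goes with the mutant group, and its part in differences between the D30 ovaries was not tested. Among 11 germ cell markers the summed FPKM (read pairs per exon length and per counted total of the library, in the usual units) was between 4.32 and 27.4 at D10 in all 9 libraries. It was at least 512 in every library of D30 and D120. Markers of muscle (5 genes) summed to between 868 and 4111 FPKM at D10 and to at most 14.1 FPKM at the later stages. The Sertoli and testis somatic list (6 genes) summed to at most 161 FPKM in D30 and D120 ovaries and to between 476 and 2466 FPKM in testes of these stages. At D10 it did not separate MT_Fe_Ov (22 to 26.7 FPKM) or WT_Fe_Ov (21.4 to 22.5 FPKM) from the testis (16.6 to 44.9 FPKM). In these bulk libraries, fewer cells of a type and less RNA per cell cannot be told apart. Testes and ovaries also differed in composition: with TMM scaling, the median gene was 0.56 lower on the log2 scale in D30_WT_Fe_Ov than in D30_WT_Ma_Te, and with library totals alone, which FPKM uses, 1.5 lower. Fold changes below are from edgeR with TMM scaling, and a gene is called where its Benjamini-Hochberg adjusted p over all genes is at most 0.05 and its log2 fold change at least 1 in size.

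At D10 the oocyte factors were low, and near the limit of detection in the testis and for bmp15 and zglp1. The members whose ovary libraries all lay above the testis libraries were figla, zar1 and nobox. For figla, FPKM was 0.836, 1.74 and 1.27 in D10_MT_Fe_Ov and 4.12, 0.703 and 2.89 in D10_WT_Fe_Ov, against 0.070, 0 and 0.3 in D10_WT_Ma_Te. Each ovary library was above each testis library. The testis values stand for 1, 0 and 2 read pairs, so the ratios of pooled counts were 14.2 for MT_Fe_Ov (95% interval 4.65 to 70.8) and 27.4 for WT_Fe_Ov (9.15 to 135). These intervals, from the exact binomial method, cover counting error only.

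For zar1, FPKM was 2.71, 2.66 and 2.33 in D10_MT_Fe_Ov and 5.83, 0.844 and 5.12 in D10_WT_Fe_Ov, against 0.303, 0.372 and 0.648 in D10_WT_Ma_Te. Neither ovary group overlapped the testis, while the ovary groups overlapped each other. The log2 fold changes were 2.73 (SE 0.53, adjusted p = 0.121) for MT_Fe_Ov and 3.24 (SE 0.80, adjusted p = 0.536) for WT_Fe_Ov over the testis. For nobox, the read pairs numbered 9, 11 and 14 in D10_MT_Fe_Ov and 33, 10 and 25 in D10_WT_Fe_Ov, against 5, 0 and 0 in D10_WT_Ma_Te. The remaining members showed no such order. There were between 6 and 11 read pairs of zglp1 in D10_MT_Fe_Ov, 8 or 9 in D10_WT_Fe_Ov and between 3 and 8 in D10_WT_Ma_Te. For bmp15 there were 1, 2 and 3 read pairs in D10_MT_Fe_Ov and 5, 0 and 4 in D10_WT_Fe_Ov, against 1, 2 and 2 in D10_WT_Ma_Te, and a difference was not detectable at this depth.

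None of the 5 members was called in D10_MT_Fe_Ov over D10_WT_Ma_Te, where 0.11% of 24536 genes were called higher, or in D10_WT_Fe_Ov over D10_WT_Ma_Te, where 0.00814% of 24562 genes were. In both comparisons 3 members (figla, nobox and zar1) had an unadjusted p under 0.05, and DESeq2 called 2, figla and zar1, giving no adjusted p to nobox and bmp15 for MT_Fe_Ov. In a single fit of all 27 libraries, which shares 1 estimate of the spread with the later stages, these 3 members were called in both comparisons. Over all genes and in either direction, DESeq2 called 1017 in the MT_Fe_Ov comparison and 168 in the WT_Fe_Ov comparison. The single fit called 2252 and 488. The share of all genes under an unadjusted p of 0.05 is not given here. D10_MT_Fe_Ov and D10_WT_Fe_Ov differed in no member by edgeR or DESeq2 (0.374% of 24605 genes called either way), with 1 member, nobox, under an unadjusted p of 0.05 (log2 fold change -1.14, SE 0.45, adjusted p = 0.227).

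Replicate 2 of D10_WT_Fe_Ov was the lowest of its group for figla, zar1, nobox and bmp15, and it was also the lowest for the germ cell genes ddx4 and piwil1. The RNA helicase ddx4 (vasa), a germ cell marker, was at 3.46, 4.94 and 3.18 FPKM in D10_MT_Fe_Ov and 12.3, 4.40 and 10.4 FPKM in D10_WT_Fe_Ov, against 0.471, 2.97 and 1.16 FPKM in D10_WT_Ma_Te. Within a library, figla stood at 0.242 to 0.399 of the ddx4 FPKM in D10_MT_Fe_Ov and at 0.160 to 0.334 in D10_WT_Fe_Ov, and at 0 to 0.258 in D10_WT_Ma_Te. The ranges of all 3 groups overlapped on this ratio. The testis ratios rest on 1, 0 and 2 read pairs of figla over 13, 50 and 15 of ddx4. At these counts the overlap cannot show whether figla differed relative to ddx4. The part of germ cell number in the D10 differences was not tested.

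**Figure D1:**
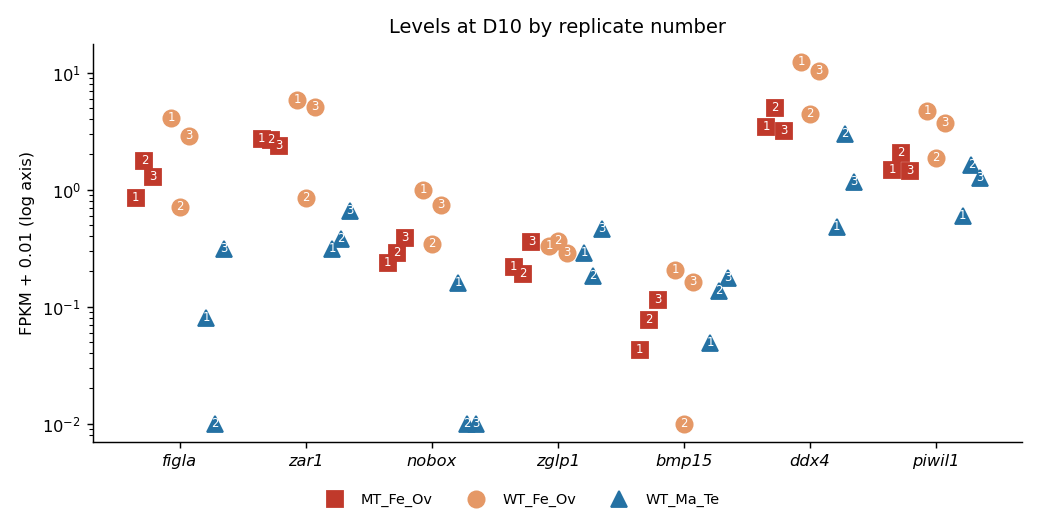
FPKM plus 0.01 at D10 on a log axis for the 5 oocyte factors and the germ cell genes ddx4 and piwil1 in each library, with the replicate number inside each point (MT_Fe_Ov squares, WT_Fe_Ov circles, WT_Ma_Te triangles). Replicate 2 of WT_Fe_Ov lies under replicates 1 and 3 for figla (0.703 FPKM), zar1 (0.844 FPKM) and ddx4 (4.40 FPKM), and zglp1 and bmp15 show no order of the groups.

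By D30 all 5 members had risen in the ovary, and bmp15 and zar1 by the largest factors. In D30_WT_Fe_Ov over D10_WT_Fe_Ov, all 5 were called higher, as were 29% of 24828 genes. The log2 fold changes were 11.80 (SE 0.27) for bmp15, 8.36 (SE 0.44) for zar1, 7.68 (SE 0.13) for zglp1, 7.11 (SE 0.36) for figla and 7.0 (SE 0.23) for nobox. In D30_MT_Fe_Ov over D10_MT_Fe_Ov, all 5 were called higher, as were 23.7% of 24598 genes, with log2 fold changes of 12.21 (SE 0.35) for bmp15, 8.88 (SE 0.33) for zar1 and between 7.08 and 7.70 for nobox, zglp1 and figla. All adjusted p-values in both comparisons were 5.51e-07 or lower. The bmp15 values rest on 9 and 6 pooled read pairs at D10, and the ratio of pooled counts was 3686 in WT_Fe_Ov (95% interval 1941 to 8062) and 6191 in MT_Fe_Ov (2844 to 16874). D10 and D30 libraries also differ in the body tissue they hold, and this cannot be told apart from the stage.

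In the D30 and D120 ovaries, zar1 was the member with the highest FPKM and nobox and zglp1 were the lowest. For zar1, the D30_MT_Fe_Ov libraries stood at 1179, 1274 and 873 FPKM and the D30_WT_Fe_Ov libraries at 958, 945 and 976 FPKM, against 6.29, 8.43 and 8.59 FPKM in D30_WT_Ma_Te. At D120 zar1 was at 909, 972 and 946 FPKM in MT_Fe_Ov and 961, 909 and 929 FPKM in WT_Fe_Ov, against 0.770, 1.24 and 1.94 FPKM in WT_Ma_Te. The ovaries of both genotypes overlapped at each stage, and no testis library came near them. Its relative zar1l (chromosome 14), which is not one of the 5, was likewise higher in the ovary, with 855.99 ± 42.9 FPKM in D30_WT_Fe_Ov against 6.14 ± 1.20 FPKM in D30_WT_Ma_Te (SD, n = 3 each).

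For bmp15, FPKM was 326, 291 and 317 in D30_MT_Fe_Ov and 322, 323 and 327 in D30_WT_Fe_Ov, against 4.04, 3.77 and 5.94 in D30_WT_Ma_Te. At D120 it was 284, 267 and 256 in MT_Fe_Ov and 271, 262 and 279 in WT_Fe_Ov, against 0.673, 0.458 and 0.581 in WT_Ma_Te. The testis values stood for 129 to 221 read pairs at D30 and 13 to 24 at D120. So bmp15 was counted in every testis library of both stages, at a low level.

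Relative to their level in the ovary, the transcription factors figla, nobox and zglp1 stood higher in the testis than bmp15 and zar1. In testis FPKM itself, zglp1 and zar1 overlapped at both stages. For figla, FPKM was 239.96, 287 and 200.1 in D30_MT_Fe_Ov and 241, 279 and 273 in D30_WT_Fe_Ov, against 22.6, 26.3 and 25.6 in D30_WT_Ma_Te. At D120 figla was at 278, 277 and 269.5 FPKM in MT_Fe_Ov and 297, 272 and 313 FPKM in WT_Fe_Ov, against 5.55, 5.88 and 5.52 FPKM in WT_Ma_Te. The testis libraries of a stage agreed closely with each other, and those of D120 all lay under those of D30.

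For nobox, FPKM was 38.5, 25.2 and 45.5 in D30_MT_Fe_Ov and 60.3, 67.2 and 67.9 in D30_WT_Fe_Ov, against 15.8, 14.7 and 16.0 in D30_WT_Ma_Te. At D120 nobox was at 58.0, 45.9 and 47.9 FPKM in MT_Fe_Ov and 46.0, 47.4 and 50.1 FPKM in WT_Fe_Ov, against 4.43, 3.58 and 4.13 FPKM in WT_Ma_Te. Of the 5 members, nobox had the smallest gap between ovary and testis, and at D30 its MT_Fe_Ov libraries all lay under its WT_Fe_Ov libraries. For zglp1, FPKM was 35.4, 28.5 and 39.7 in D30_MT_Fe_Ov and 43.5, 50.1 and 49.4 in D30_WT_Fe_Ov, against 7.32, 7.84 and 9.50 in D30_WT_Ma_Te. At D120 zglp1 was at 55.9, 53.8 and 58.0 FPKM in MT_Fe_Ov and 48.6, 53.0 and 53.6 FPKM in WT_Fe_Ov, against 1.12, 1.02 and 1.89 FPKM in WT_Ma_Te.

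**Figure D2:**
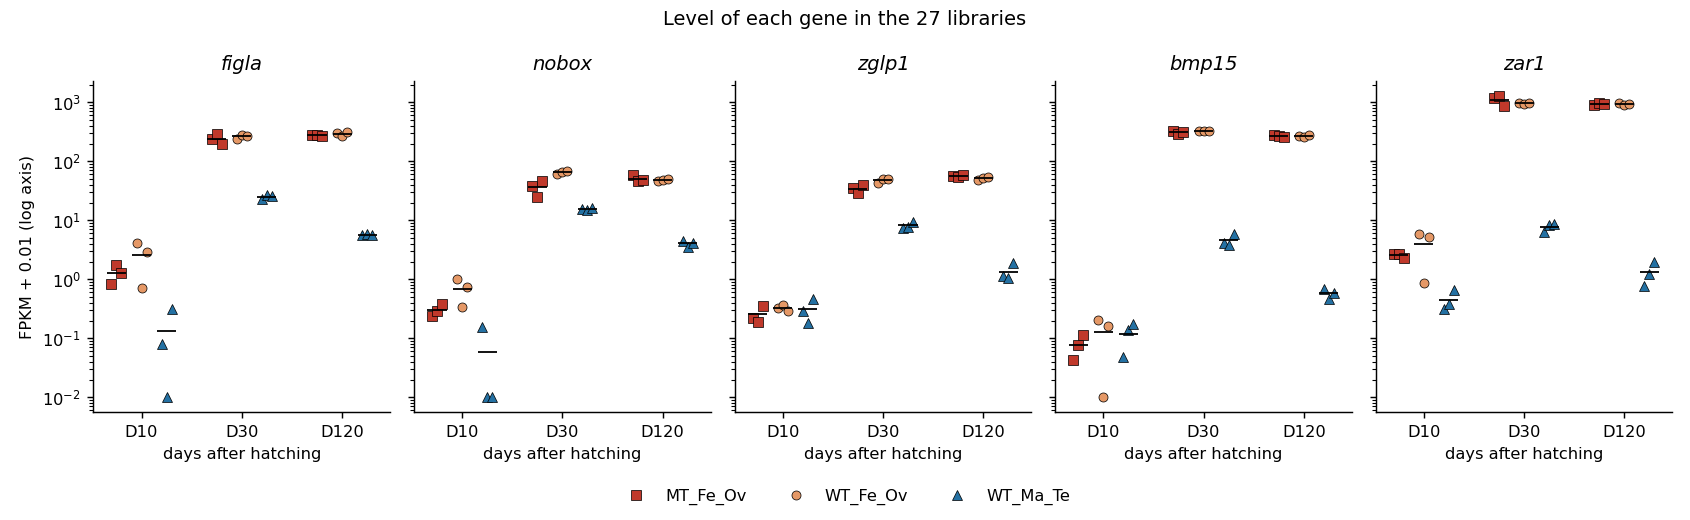
FPKM plus 0.01 of the 5 oocyte factors in each of the 27 libraries on a log axis, by stage, with MT_Fe_Ov as squares, WT_Fe_Ov as circles and WT_Ma_Te as triangles, and a bar at the mean of each group (n = 3). At D30 and D120 the ovaries of both genotypes lie above the testis, by the most for zar1 (972 against 1.24 FPKM in replicate 2 of D120_MT_Fe_Ov and D120_WT_Ma_Te) and by the least for nobox. For nobox and zglp1 the D30_MT_Fe_Ov libraries lie under the D30_WT_Fe_Ov libraries.

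In D30_WT_Fe_Ov over D30_WT_Ma_Te, all 5 members were called higher, as were 22.2% of 25311 genes. The log2 fold changes were 7.91 (SE 0.11) for zar1, 7.10 (SE 0.13) for bmp15, 4.37 (SE 0.09) for figla, 3.49 (SE 0.10) for zglp1 and 3.02 (SE 0.08) for nobox. In D30_MT_Fe_Ov over D30_WT_Ma_Te, all 5 were called higher, as were 19.2% of 25255 genes, and the order was the same: 8.02 (SE 0.26) for zar1, 6.95 (SE 0.24) for bmp15, 4.15 (SE 0.18) for figla, 2.94 (SE 0.18) for zglp1 and 2.10 (SE 0.22) for nobox. The highest adjusted p of these 10 values was 4.40e-05, for nobox in MT_Fe_Ov. Both comparisons use the same testis libraries, which were sequenced with shorter reads than the other groups.

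At D120 the gap was wider for every member. In D120_WT_Fe_Ov over D120_WT_Ma_Te, all 5 were called higher, as were 23.6% of 24997 genes, with log2 fold changes of 9.81 (SE 0.24) for zar1, 9.18 (SE 0.18) for bmp15, 6.02 (SE 0.14) for figla, 5.59 (SE 0.19) for zglp1 and 3.88 (SE 0.13) for nobox. In D120_MT_Fe_Ov over D120_WT_Ma_Te, all 5 were called higher, as were 24.1% of 25003 genes, with 9.88 (SE 0.20) for zar1, 9.22 (SE 0.15) for bmp15, 5.97 (SE 0.10) for figla, 5.75 (SE 0.17) for zglp1 and 4.01 (SE 0.13) for nobox. All adjusted p-values at D120 were 1.10e-09 or lower.

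On the FPKM scale, the testis level as a share of the ovary level formed a graded series. In D30_WT_Ma_Te the FPKM was 23.8% ± 1.1 of the D30_WT_Fe_Ov mean for nobox, 17.2% ± 2.4 for zglp1, 9.40% ± 0.74 for figla, 1.42% ± 0.36 for bmp15 and 0.809% ± 0.134 for zar1 (SD, n = 3 testis libraries). In D120_WT_Ma_Te the shares were 8.45% ± 0.90 for nobox, 2.60% ± 0.92 for zglp1, 1.92% ± 0.07 for figla, 0.211% ± 0.040 for bmp15 and 0.141% ± 0.063 for zar1. The testis ranges of zglp1 (1.98% to 3.66%) and figla (1.88% to 2.00%) overlapped at D120, as did those of bmp15 (0.169% to 0.249%) and zar1 (0.083% to 0.208%), while nobox stood apart. These shares rest on library totals and depend on the scaling: in the TMM-scaled fits, D30_WT_Fe_Ov stood 8.13 times above D30_WT_Ma_Te for nobox and 11.2 times for zglp1, which puts their D30 shares lower by more than 1.5 times, with the members in the same order. Set against MT_Fe_Ov, the D30 shares of nobox and zglp1 were higher, 42.6% ± 1.9 and 23.8% ± 3.3.

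**Figure D3:**
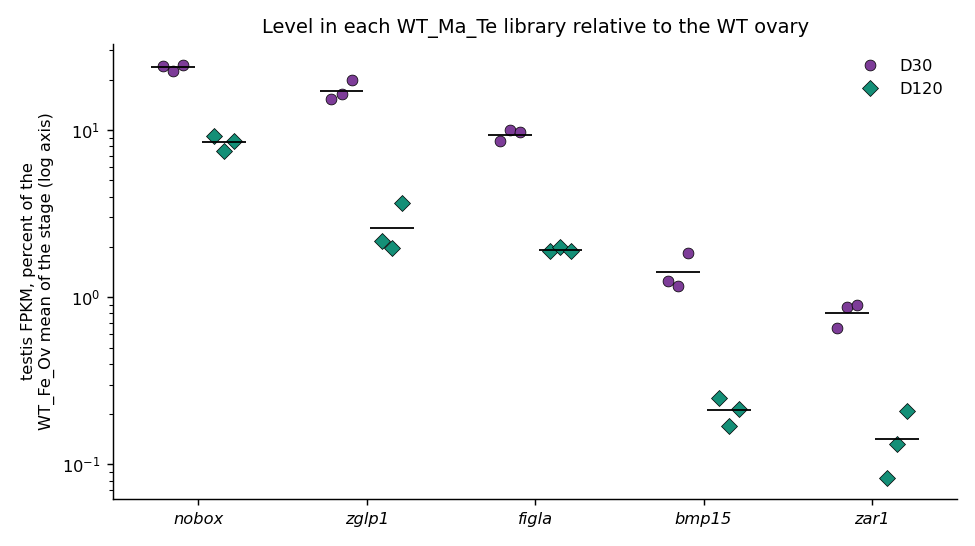
FPKM of each D30 (circles) and D120 (diamonds) WT_Ma_Te library as a percentage of the WT_Fe_Ov mean of the same stage on a log axis, with a bar at the mean of the 3 libraries. The shares run down from nobox (23.8% at D30 and 8.45% at D120) over zglp1 and figla to bmp15 and zar1 (0.809% and 0.141%), and each member has its lower share at D120.

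Contrasts between members were also read within single libraries, where the scaling between libraries has no part. The FPKM of nobox was 0.0876 to 0.228 of that of figla in D30_MT_Fe_Ov and 0.241 to 0.250 in D30_WT_Fe_Ov, against 0.559 to 0.698 in D30_WT_Ma_Te. The FPKM of bmp15 was 1.01 to 1.59 times that of figla in D30_MT_Fe_Ov and 1.16 to 1.33 times in D30_WT_Fe_Ov, against 0.143 to 0.232 times in D30_WT_Ma_Te. For zar1 the ratio to figla was 4.36 to 4.91 in D30_MT_Fe_Ov and 3.39 to 3.97 in D30_WT_Fe_Ov, against 0.278 to 0.335 in D30_WT_Ma_Te. The FPKM of zglp1 was 0.0993 to 0.198 of that of figla in D30_MT_Fe_Ov and 0.180 to 0.181 in D30_WT_Fe_Ov, against 0.298 to 0.371 in D30_WT_Ma_Te. Relative to figla, the D30 testis thus held more nobox and zglp1 and less bmp15 and zar1 than either ovary, with no overlap. At D120 the nobox ratio was 0.165 to 0.209 in MT_Fe_Ov and 0.155 to 0.174 in WT_Fe_Ov, against 0.608 to 0.797 in WT_Ma_Te, and the zar1 ratio was 3.27 to 3.51 and 2.97 to 3.34, against 0.139 to 0.352. The zglp1 ratio at D120 was 0.194 to 0.215 in MT_Fe_Ov and 0.164 to 0.195 in WT_Fe_Ov, against 0.174 to 0.343 in WT_Ma_Te, and there the testis overlapped both ovaries.

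Between D30 and D120 the members changed by less than the fold limit in the ovaries and fell in the testis. In D120_WT_Fe_Ov over D30_WT_Fe_Ov, none of the 5 was called, against 21.2% of 24266 genes called either way. By edgeR 3 members had an unadjusted p under 0.05, and DESeq2 called none. For this count and that of the mutant ovary below, the share of all genes under that p is not given here. These counts therefore do not set the members apart from other genes. The log2 fold change of nobox was -0.60 (SE 0.08, adjusted p = 0.000185) and that of bmp15 was -0.41 (SE 0.08, adjusted p = 0.00151), both past the adjusted p but under the fold limit. With library totals alone the bmp15 value was -0.26 (adjusted p = 0.0054), and in the fit of 27 libraries it was -0.43 (adjusted p = 0.132). In D120_MT_Fe_Ov over D30_MT_Fe_Ov, none was called either (17.4% of 23897 genes called either way), with 3 members under an unadjusted p of 0.05 and none called by DESeq2. There bmp15 was at -0.44 (SE 0.13, adjusted p = 0.0335) and zglp1 at 0.46 (SE 0.14, adjusted p = 0.041). With a library left out, the adjusted p of bmp15 was between 0.00387 and 0.154 and that of zglp1 between 0.0169 and 0.153.

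The D120 testis was lower than the D30 testis in every member. In D120_WT_Ma_Te over D30_WT_Ma_Te, all 5 were called lower, as were 21.3% of 25365 genes. The log2 fold changes were -2.57 (SE 0.29, adjusted p = 6.93e-06) for bmp15, -2.20 (SE 0.24, adjusted p = 5.56e-06) for zglp1, -2.15 (SE 0.33, adjusted p = 9.47e-05) for zar1, -1.72 (SE 0.15, adjusted p = 6.17e-07) for figla and -1.52 (SE 0.12, adjusted p = 3.60e-07) for nobox. The germ cell gene ddx4 was at 257.6 ± 35.7 FPKM in D120_WT_Ma_Te and 350.1 ± 24.9 FPKM in D30_WT_Ma_Te (SD, n = 3 each). With TMM scaling its log2 fold change was -0.02 (SE 0.10, adjusted p = 0.864). Over the 11 germ cell markers the median was -0.69 beside -0.11 for all genes. Of these markers 3 were called lower (21.3% of all genes), dnd1, nanos2 and nanos3, and 1 higher (17.8%), tdrd12. Markers of spermatocytes and spermatids (9 genes) summed to between 1076 and 1204 FPKM in D120_WT_Ma_Te and between 242 and 273 FPKM in D30_WT_Ma_Te. Whether cell makeup had a part in the fall of the oocyte factors was not tested. D30 testis libraries were sequenced with shorter reads than the other groups, and read length cannot be told apart from this stage of the testis.

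The earlier step in the testis ran upwards. In D30_WT_Ma_Te over D10_WT_Ma_Te, all 5 were called higher, as were 23% of 25306 genes, with log2 fold changes of 7.40 (SE 0.64) for figla, 7.37 (SE 0.69) for nobox, 5.07 (SE 0.63) for bmp15, 4.39 (SE 0.44) for zglp1 and 3.78 (SE 0.51) for zar1. The highest adjusted p was 0.000494, for zar1. For figla the D10 side held 3 read pairs in all, and the ratio of pooled counts was 186 (95% interval 63.7 to 905). In the same comparison ddx4 was called higher (log2 fold change 7.40, SE 0.72). D10 libraries also hold neighbouring body tissue, and the D30 testis libraries were sequenced with shorter reads. Neither can be told apart from the stage in this comparison.

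The widening of the ovary-to-testis gap from D30 to D120 was tested as an interaction in a fit of all 27 libraries. The D30 testis libraries, with their shorter reads, enter each interaction, and read length cannot be told apart from stage there. For WT_Fe_Ov over WT_Ma_Te, 4 of the 5 members were called, as were 19.2% of 25601 genes in the direction of a wider or more positive difference at D120. The interaction was 2.14 (SE 0.26, adjusted p = 3.63e-07) for zglp1, 2.13 (SE 0.35) for bmp15, 1.94 (SE 0.50) for zar1 and 1.70 (SE 0.39) for figla, and 0.90 (SE 0.34, adjusted p = 0.0357) for nobox, which missed the fold limit. For MT_Fe_Ov over WT_Ma_Te, all 5 were called, as were 19% of 25601 genes: 2.65 (SE 0.26) for zglp1, 2.12 (SE 0.35) for bmp15, 1.75 (SE 0.34) for nobox, 1.69 (SE 0.50) for zar1 and 1.67 (SE 0.39) for figla.

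The XY ovary of the mutant and the XX ovary differed in none of the 5 members by the call. In D30_MT_Fe_Ov over D30_WT_Fe_Ov, none was called, against 1.68% of 23842 genes, and 2 members, nobox and zglp1, had an unadjusted p under 0.05. How many of all genes had such a p is not given here. DESeq2 called none. The log2 fold change was -0.77 (SE 0.23, adjusted p = 0.115) for nobox and -0.40 (SE 0.16, adjusted p = 0.224) for zglp1, and for both genes the 3 MT_Fe_Ov libraries lay under the 3 WT_Fe_Ov libraries. Over the alternative edgeR and DESeq2 fits with no library left out, nobox was between -0.84 and -0.74. Its adjusted p there was between 0.0177 and 0.126, and the fold limit was not reached. The log2 fold change was -0.07 (SE 0.14) for figla, 0.01 (SE 0.12) for bmp15 and 0.26 (SE 0.15) for zar1. The relative zar1l was at 1312, 1437 and 1151 FPKM in D30_MT_Fe_Ov against 901, 816 and 851 FPKM in D30_WT_Fe_Ov, with a log2 fold change of 0.66 (SE 0.13, adjusted p = 0.0397) under the fold limit.

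Replicate 2 of D30_MT_Fe_Ov had the lowest nobox and zglp1 and the highest figla, zar1 and zar1l of its group. It also had the highest foxl2, a transcription factor of granulosa cells, with 2.31, 8.60 and 3.89 FPKM in the D30_MT_Fe_Ov libraries against 8.80, 8.37 and 9.56 FPKM in D30_WT_Fe_Ov. The gene gsdf, of the Sertoli and testis somatic list, was at 18.9, 134 and 30.9 FPKM against 61.0, 90.4 and 74.7 FPKM in the same groups. The granulosa list (8 genes) summed to 13.5 to 58.4 FPKM in D30_MT_Fe_Ov and 27.4 to 36.2 FPKM in D30_WT_Fe_Ov. In D30_WT_Ma_Te it summed to 90.4 to 99.3 FPKM. Leaving out each library in turn, the nobox value stayed between -0.98 and -0.53 and was smallest in size without that replicate (adjusted p between 0.0179 and 0.372). The germ cell gene ddx4 was at 275.3 ± 20 FPKM in D30_MT_Fe_Ov and 188.7 ± 3.3 FPKM in D30_WT_Fe_Ov (SD, n = 3 each). Another germ cell gene, piwil1, lay the other way, at 81.9 ± 28.6 FPKM in D30_MT_Fe_Ov and 129.9 ± 4.7 FPKM in D30_WT_Fe_Ov. Of the 11 germ cell markers none was called between these ovaries, against 1.68% of all genes. This count does not set the markers apart from other genes. Their median log2 fold change was -0.19 beside -0.04 for all genes. The part of these library differences in the nobox and zglp1 values was not tested.

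At D120 the ovaries of both genotypes lay close together in all 5 members, and a change of their difference from D30 was not tested. In D120_MT_Fe_Ov over D120_WT_Fe_Ov, none of the 5 was called by edgeR or DESeq2, and 0.104% of 24122 genes were called either way. None of the 5 had an unadjusted p under 0.05, for which the share of all genes is not given here. The log2 fold changes were -0.09 (SE 0.09) for figla, 0.09 (SE 0.10) for nobox, 0.12 (SE 0.08) for zglp1, 0.00 (SE 0.09) for bmp15 and 0.02 (SE 0.09) for zar1. These SEs bound the differences more narrowly than at D10, where the SE was between 0.42 and 0.94.

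**Figure D4:**
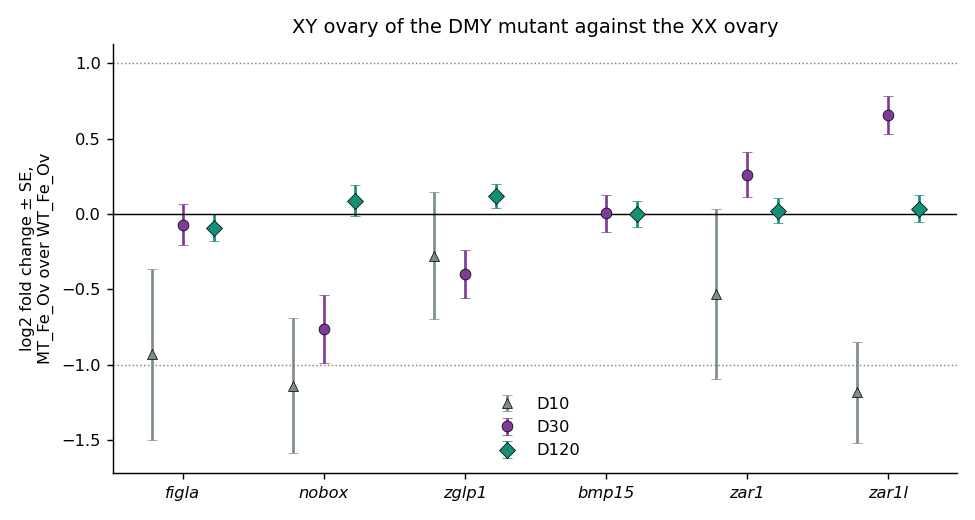
Log2 fold change of D10, D30 and D120 MT_Fe_Ov over WT_Fe_Ov of the same stage from edgeR, with the SE as error bars (n = 3 libraries a group) and dotted lines at the fold limit of 1 in either direction. At D120 every point lies within 0.12 of 0, at D30 nobox (-0.77) and zar1l (0.66) lie farthest from it, and the D10 value of bmp15 is left out because it rests on 6 and 9 read pairs.

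Ordered by mean FPKM, the 4 ovary groups of D30 and D120 came first for each of the 5 members, followed by D30_WT_Ma_Te. D120_WT_Ma_Te came next for figla, nobox, zglp1 and bmp15. For zar1, the D10 ovaries (2.57 ± 0.21 FPKM in MT_Fe_Ov and 3.93 ± 2.7 FPKM in WT_Fe_Ov) stood above D120_WT_Ma_Te (1.32 ± 0.59 FPKM). Neighbours among the 4 ovary groups overlapped in FPKM for figla and zar1. With TMM-scaled CPM, zar1 in D30_WT_Fe_Ov (mean 1350) stood above D120_MT_Fe_Ov (mean 1172) without overlap. For nobox, D30_MT_Fe_Ov (36.4 ± 10.3 FPKM) stood below and D30_WT_Fe_Ov (65.1 ± 4.2 FPKM) above the D120 ovaries without overlap, but with TMM-scaled CPM D30_MT_Fe_Ov overlapped D120_WT_Fe_Ov. The order of the ovary groups changed with TMM scaling for figla, zglp1 and bmp15.

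Other genes of the oocyte transcription and growth factor list did not all share this pattern. The list held 6 genes beside the members, among them foxl2, which is also on the list of granulosa markers. In D30_WT_Fe_Ov over D30_WT_Ma_Te, 2 of the 6 were called higher (22.2% of all genes) and 4 lower (35.6% of all genes), and the median was -1.81 on the log2 scale beside -0.56 for all genes. Higher was tbpl2, which encodes a TBP-related factor used in mouse oocytes, with 10.9, 11.4 and 11.1 FPKM in D30_WT_Fe_Ov against 0.0361, 0.243 and 0.149 FPKM in D30_WT_Ma_Te (log2 fold change 7.21, SE 0.26, adjusted p = 5.42e-15). Lower was lhx8, a LIM homeobox factor that mouse oocytes need, with 0.0995, 0.0899 and 0.124 FPKM in D30_MT_Fe_Ov and 0.287, 0.549 and 0.499 FPKM in D30_WT_Fe_Ov, against 21.5, 22.7 and 24.4 FPKM in D30_WT_Ma_Te. Its log2 fold change over the testis was -6.81 (SE 0.33) in MT_Fe_Ov and -4.72 (SE 0.20) in WT_Fe_Ov, both called lower. The E protein gene tcf3, whose product pairs with Figla in the mouse, and its relative tcf12 were also called lower in D30_WT_Fe_Ov than in D30_WT_Ma_Te (log2 fold change -3.21, SE 0.13, and -1.55, SE 0.16).

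At D120 foxl2 was the most ovary-biased gene of that list, with 20.9 ± 3.3 FPKM in MT_Fe_Ov and 21.8 ± 6.9 FPKM in WT_Fe_Ov, against 0.0175 ± 0.0303 FPKM in WT_Ma_Te (SD, n = 3 each). In D120_WT_Ma_Te over D30_WT_Ma_Te, 3 of the 6 genes were called lower (21.3% of all genes) and none higher (17.8%). Among them was lhx8 (log2 fold change -2.37, SE 0.17). Another was foxl2, with 1, 0 and 0 read pairs in D120_WT_Ma_Te and 12, 20 and 21 in D30_WT_Ma_Te. The value of tcf3 was 0.44 (SE 0.08), and it was not called.

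Genes for stored maternal mRNA and germ plasm held 12 besides zar1. Of these, 9 were called higher (22.2% of all genes) and 1 lower (35.6%) in D30_WT_Fe_Ov over D30_WT_Ma_Te, with a median of 3.45 beside -0.56 for all genes, and the same counts were reached in D30_MT_Fe_Ov over D30_WT_Ma_Te (19.2% and 33.5% of all genes). The largest was gtf3a, for the 5S RNA gene factor TFIIIA, with 660.1, 691 and 674 FPKM in D30_WT_Fe_Ov against 1.65, 1.68 and 1.86 FPKM in D30_WT_Ma_Te (log2 fold change 9.56, SE 0.11). In D120_WT_Fe_Ov over D30_WT_Fe_Ov, 4 of the 12 were called lower (8.86% of all genes) and none higher (12.3%). Among them were ddx6, a helicase of stored mRNA particles (log2 fold change -2.78, SE 0.13), eif4enif1, a carrier of the cap-binding protein (-2.04, SE 0.10), and the cyclin gene ccnb1 (-2.02, SE 0.09). The value of zar1 in that comparison was -0.19 (SE 0.08, adjusted p = 0.0686).

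The list of Bmp15 and Gdf9 receptors and signal (17 genes) held genes called in both directions. Beside receptors and signal carriers it holds ligand subunits (inha, inhbb), binding proteins (fst, fstl1) and inhibitors (smad6, smad7). In D30_WT_Fe_Ov over D30_WT_Ma_Te, 3 were called higher (22.2% of all genes) and 11 lower (35.6%), with a median of -1.51 beside -0.56 for all genes. Higher were id2, a target of BMP signalling (1.67, SE 0.10), the type I receptor gene acvr1 (1.51, SE 0.09) and the inhibitor gene smad7 (1.01, SE 0.11). The lowest were inha (-5.98, SE 0.22), smad1 (-3.28, SE 0.14) and smad2 (-2.96, SE 0.13). In D120_WT_Fe_Ov over D120_WT_Ma_Te, 5 were called in each direction (23.6% of all genes higher and 29.6% lower). In D120_WT_Fe_Ov over D30_WT_Fe_Ov, 5 of the 17 were called higher (12.3% of all genes) and none lower (8.86%), among them the receptor gene bmpr1b (2.7, SE 0.29) and inhbb (3.54, SE 0.22), while bmp15 itself was not called. These are log2 fold changes.

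This list also held 3 genes that were called higher between the ovaries at D30, where 0.801% of all genes were. In D30_MT_Fe_Ov over D30_WT_Fe_Ov, bmpr2, the type II receptor of Bmp15, was called higher with 10.5 ± 3.1 FPKM in MT_Fe_Ov against 3.36 ± 0.28 FPKM in WT_Fe_Ov (log2 fold change 1.71, SE 0.23, adjusted p = 0.0127). So were smad2 (1.53, SE 0.28, adjusted p = 0.0342) and acvr2a (1.36, SE 0.22, adjusted p = 0.0251). Between 0 and 1078 genes in all were called in this comparison when a library was left out, the lowest without replicate 3 of D30_WT_Fe_Ov and the highest without replicate 2 of D30_MT_Fe_Ov. At D120 none of the 17 was called between the ovaries, where 0.104% of all genes were called either way. A change of these differences from D30 was not tested.

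Genes of meiotic entry and synapsis (15 genes) were lower in the ovary than in the testis at D30 where they were called, while most, like the oocyte factors, were called higher at D30 than at D10. In D30_WT_Fe_Ov over D30_WT_Ma_Te, none was called higher (22.2% of all genes) and 9 were called lower (35.6% of all genes, median -2.35 beside -0.56 for all genes), led by smc1b (log2 fold change -5.88, SE 0.10) and sycp2 (-5.30, SE 0.16), for a cohesin subunit and a part of the synaptonemal complex. In D120_WT_Ma_Te over D30_WT_Ma_Te, 8 were called higher (17.8% of all genes) and none lower (21.3%), where all 5 oocyte factors were called lower. In D30_WT_Fe_Ov over D10_WT_Fe_Ov, 11 of the 15 were called higher (29% of all genes), led by mei4 (7.29, SE 0.28), rec114 (6.16, SE 0.28) and spo11 (6.10, SE 0.24), which act in the making of meiotic DNA breaks. In D30_WT_Ma_Te over D10_WT_Ma_Te, 13 were called higher (23% of all genes). The egg coat list held only the receptor gene vldlr, so no statement on that list is made.

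The genes whose profile was most like each member were found by Pearson correlation of log2(FPKM + 1) over the 27 libraries, among 9503 other genes with a mean of at least 1 FPKM. All points share the stages and the strong step from D10 to D30, and the values are a description. The most alike were mmachc (r = 0.992), fastkd3, cdt1, trmt10c and mars2 for figla, rrp9 (r = 0.994), osgepl1, polh and mgat2 for nobox, and vrtn (r = 0.995), fastkd3, cmss1, socs1 and cdt1 for zglp1. For bmp15 they were lsm1 (r = 0.996), zar1l, polr3g, nuak2 and prkcsh, and for zar1 they were zar1l (r = 0.995), exosc6, bmp15, arhgap11b and trmt10a. Among the 5 members themselves, r was between 0.911 (nobox and zar1) and 0.989 (bmp15 and zar1). The lists depended on the measure, and over the 18 libraries of D30 and D120 between 0 and 2 of the 5 genes of each list stayed among the 5 most alike.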

How the data were processed

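Per the methods of the authors, trimming was done with fastp, alignment to ASM223467v1 with STAR, and counting with featureCounts, without strand and without pairs aligned to several places. The deposited values include a raw count of read pairs for each of 26099 genes. The deposited FPKM values equal, on these tables, the count over exon length and library total, with a largest relative deviation of 1.06e-07. Depth was 5551651 to 17586392 counts per library. Samples were grouped by the labels (3 libraries in each of 9 groups). Replicates are called biological in the labels, and what each was pooled from is not given in the sources used here.

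Counts of the compared groups were tested with edgeR 4.0.16 (quasi-likelihood, TMM factors, genes with at least 1 count, Benjamini-Hochberg over all genes tested, R 4.3.3). The SE is the log2 fold change over the root of F. The interactions used 1 fit of 27 libraries. DESeq2 1.42.0, other scalings and filters, an adjusted p of 0.01, a replicate block and leaving out each library were the alternatives. The edgeR and DESeq2 steps were tested on simulated counts for D30_WT_Fe_Ov over D30_WT_Ma_Te and D30_MT_Fe_Ov over D30_WT_Fe_Ov. No D10 comparison and no interaction was simulated. The members and gene lists were chosen with earlier results of these data known. Named were the members, the 5 genes most alike to each, and per list up to 3 called genes in each direction with the largest change and a mean of at least 1 CPM in the higher group. Of the lists, 10 of 26 symbols (oocyte factors), 13 of 33 (stored mRNA), 17 of 54 (BMP signal) and 15 of 29 (meiosis) were found. The D30_WT_Fe_Ov value of tcf12, the foxl2 and tcf3 values outside that rule, and ddx4, piwil1, gsdf and zar1l were chosen after their values were seen. In 9 rows the symbol had been turned into a date, and none was named. Of the genes most alike to nobox, 1 is not reported here. No reference sequence was used here.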

Additional observations from a re-analysis of the deposited data

Results flagged for a closer look

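The ovary-to-testis difference of all 5 oocyte factors differed between D120 and D30 when the change was tested itself as an interaction, with an adjusted p of at most 0.05. On the log2 scale, the difference of MT_Fe_Ov over WT_Ma_Te was wider at D120 by 2.65 for zglp1 (adjusted p = 1.39e-08), 2.12 for bmp15 (2.39e-05), 1.75 for nobox (0.000208), 1.69 for zar1 (0.00769) and 1.67 for figla (0.00113). The difference of WT_Fe_Ov over WT_Ma_Te was wider by 2.14 for zglp1 (adjusted p = 3.63e-07), 2.13 for bmp15 (2.2e-05), 1.94 for zar1 (0.00261), 1.70 for figla (0.000943) and 0.90 for nobox (0.0357). Both sets share the 6 testis libraries, and those of D30 were sequenced with shorter reads. With the fold limit as well, all 5 members and 19% of 25601 genes were called higher for MT_Fe_Ov. For WT_Fe_Ov it was 4 members and 19.2% of 25601 genes. The median over all genes was 0.21 for MT_Fe_Ov and 0.14 for WT_Fe_Ov.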

How the results depend on the processing

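The number of members called was the same in all comparisons after D10 under DESeq2, other scalings and filters, the stricter p and each library left out, except that with library totals alone nobox (1.49, adjusted p = 0.000697) brought the interaction of WT_Fe_Ov over WT_Ma_Te to 5 of 5. At D10 the call depended on the fit. DESeq2 called 2 members and 1 fit of all 27 libraries called 3, in MT_Fe_Ov and in WT_Fe_Ov over WT_Ma_Te alike, against 0 by edgeR on the 6 libraries compared. With a library left out the count was between 0 and 2 for D10_MT_Fe_Ov over D10_WT_Ma_Te (2, nobox and zar1, without replicate 1 of D10_WT_Ma_Te) and 0 for D10_WT_Fe_Ov over D10_WT_Ma_Te.

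With replicate number as a block, 0 members were called at D10, and the block changed no call of a member elsewhere. The labels do not say whether equal numbers pair the samples. Over 45 pairs, deviations of same-numbered libraries correlated between -0.14 and 0.19, and in 0 of 15 comparisons were all 3 above 0.1. With 3 libraries a group, these correlations cannot decide whether a batch was shared. The block moved the count over all genes to 83 (2 without it) in D10_WT_Fe_Ov over D10_WT_Ma_Te, 103 (27) in D10_MT_Fe_Ov over D10_WT_Ma_Te, 4 (92) in D10_MT_Fe_Ov over D10_WT_Fe_Ov and 112 (25) in D120_MT_Fe_Ov over D120_WT_Fe_Ov.

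Directions that turned were all of uncalled values, which were near 0 at the later stages and rested on few read pairs at D10. With library totals alone bmp15 was at -0.057 in D30_MT_Fe_Ov over D30_WT_Fe_Ov, zglp1 at 0.12 in D120_WT_Fe_Ov over D30_WT_Fe_Ov and figla at 0.18 in D120_MT_Fe_Ov over D30_MT_Fe_Ov. In 1 fit of all 27 libraries figla was at -0.020 in D120_WT_Fe_Ov over D30_WT_Fe_Ov. With a library left out, values turned at D10 for bmp15 (-0.31 to 0.79, WT_Fe_Ov over WT_Ma_Te) and zglp1 (-0.058 to 0.41 for WT_Fe_Ov and -0.38 to 0.16 for MT_Fe_Ov over WT_Ma_Te). For MT_Fe_Ov over WT_Fe_Ov they turned at D30 for bmp15 (-0.048 to 0.088) and figla (-0.17 to 0.033) and at D120 for nobox (-0.029 to 0.14), zar1 (-0.029 to 0.056) and bmp15 (-0.058 to 0.044). For D120 over D30 figla turned in WT_Fe_Ov (-0.086 to 0.083) and MT_Fe_Ov (-0.17 to 0.075). Their cause was not tested.

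Library totals alone moved the median of all genes by -0.95 in D30_WT_Fe_Ov over D30_WT_Ma_Te, -0.81 in D30_MT_Fe_Ov over D30_WT_Ma_Te, -0.29 to -0.34 in these comparisons at D120 and -0.42 in D120_WT_Ma_Te over D30_WT_Ma_Te. Counts over all genes moved by more than 1.5 times in the D10 comparisons, between the ovaries and, with 1 library left out, in 1 comparison of stages. DESeq2 called 168 in D10_WT_Fe_Ov over D10_WT_Ma_Te, 1017 in D10_MT_Fe_Ov over D10_WT_Ma_Te, 415 in D10_MT_Fe_Ov over D10_WT_Fe_Ov, 719 (401 by edgeR) in D30_MT_Fe_Ov over D30_WT_Fe_Ov and 121 in D120_MT_Fe_Ov over D120_WT_Fe_Ov. The fit of 27 libraries called 488, 2252, 15, 675 and 49 in that order, and an adjusted p of 0.01 left 0, 1, 5, 95 and 16. With filterByExpr 0 and 3 genes were called at D10 in WT_Fe_Ov and MT_Fe_Ov over WT_Ma_Te. With a library left out the counts ran from 0 to 948, 0 to 3579, 0 to 195, 0 to 1078 and 10 to 66. The highest were reached without replicate 1 of D10_WT_Ma_Te (948 and 3579), replicate 3 of D10_MT_Fe_Ov (195), replicate 2 of D30_MT_Fe_Ov (1078) and replicate 1 of D120_MT_Fe_Ov (66). In D120_MT_Fe_Ov over D30_MT_Fe_Ov, 4159 genes were called, and 2742 without replicate 2 of D120_MT_Fe_Ov.

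Of the 5 genes most like a member, log2(FPKM + 0.1) kept 1 to 3, Spearman rho 0 or 1, the 9 group means 3 to 5, TMM-scaled CPM 1 to 3, and leaving out a replicate number of every group 2 to 5. The D10 values of the members rest on low counts, between at most 5 read pairs in a library for bmp15 and at most 76 for zar1.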
